A study of Mus musculus with 9 samples.

Results

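Long intergenic noncoding RNAs (lincRNAs) were described in C2C12 myotubes, mouse myoblasts of an established line that exit the cell cycle and fuse in low serum. A gene was counted in when GENCODE M21 gave it the type lincRNA and its mean over all 9 libraries was at least 100 normalized counts, the deposited estimated read counts divided by a size factor per library. H19, Meg3, Rian and symbols ending in -ps were left out by name. This left 166 lincRNAs of the 5082 lincRNA genes in the deposited table, which holds 52780 genes in all. The members were thus selected on their mean level, which is a description and carries no test. Just inside the threshold lay Gm11261, A130077B15Rik and Gm35419 with means of 105, 104 and 102 normalized counts, and just outside it lay Gm17300, 1110019D14Rik and Gm48422 with 97.7, 97.6 and 97.2. H19, with a mean of 233828 normalized counts, and Tmem250-ps, with 1617, were above the threshold and left out by name.

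The study compared 3 groups of 3 libraries of polyadenylated RNA from C2C12 cells collected at day 4 of differentiation. The si Ctrl group received control siRNA and is called wild type in the labels, and the si mH2A1.1 and si mH2A1.2 groups received siRNA against one or the other splice isoform of the histone variant macroH2A1. All groups come from 1 cell line, siRNA was used at 10 nM in repeated transfections, and no group carries a stable deletion. The source label reads myoblast while the protocol describes myotubes. The RNA is from whole dishes, so that fewer cells of a kind and less RNA per cell cannot be told apart.

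MacroH2A1 is a histone H2A variant with a large macrodomain that marks repressed chromatin, including the inactive X chromosome, and is also found on active genes. A lincRNA is a long transcript without a recognised coding sequence that lies, as a class, between coding genes, although some annotated ones overlap a coding gene. Some lincRNAs build nuclear bodies or stay on chromatin, some carry small nucleolar RNAs or microRNAs in their introns or exons, and several take part in myogenic differentiation.

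Libraries held 36924252 to 42223108 counts, and no lincRNA of the 166 had fewer than 28 counts in any library. All 166 lincRNAs passed the filter on low counts, which left 19545 genes to be tested. H2afy, which encodes both isoforms, had 2313 ± 122 normalized counts in si Ctrl (SD, n = 3 here and below), 1284 ± 190 under si mH2A1.1 and 1761 ± 80.3 under si mH2A1.2. Its fall passed the test with si mH2A1.1 (log2 fold change -0.85, edgeR adjusted p = 0.00331) and did not with si mH2A1.2 (-0.39, edgeR adjusted p = 0.108). The gene count sums both isoforms and does not show which one was lost.

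Markers of other states moved with the groups. All 10 listed interferon stimulated genes rose with si mH2A1.1, with a median log2 fold change of 3.06, and 0 of 10 passed with si mH2A1.2. Their summed level was 2148 to 2631 normalized counts in the si Ctrl libraries, 7730 to 25232 with si mH2A1.1 and 2210 to 3052 with si mH2A1.2. The 6 proliferation markers summed to 9519 to 15771, 13841 to 29877 and 7617 to 11341 normalized counts in the same order, and all 6 were higher with si mH2A1.1 than with si mH2A1.2, while 0 of 6 passed against si Ctrl. Of the 8 myotube markers, all expressed, 0 rose and 1, Myog, fell with si mH2A1.1, and 0 rose and 2, Tnnt3 and Des, fell with si mH2A1.2. Between the knockdowns 3 were higher with si mH2A1.1, namely Ckm, Des and Tnnt3 (log2 fold changes 1.14, 1.07 and 0.73), and 1, Myog, was lower (-0.46). The 10 markers of other cell types summed to at most 105 normalized counts in a library, and Pecam1 had the highest mean of them (26.6). Adgre1 and Epcam, which define macrophages and epithelium, were at 0 in every si Ctrl and si mH2A1.1 library. With si mH2A1.2 each had a mean of 0.346. The part of these states in the lincRNA results was not tested.

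The lincRNAs spanned 3 orders of magnitude. The median of their means was 253 normalized counts, with quartiles of 160 and 584. Xist, which coats the inactive X chromosome, led with a mean of 105069 normalized counts, followed by the nuclear speckle RNA Malat1 with 75867, Gm42418 with 52605 and the paraspeckle scaffold Neat1 with 23753. These 4 lincRNAs held 69.8% of the reads of all 166. Together the 166 lincRNAs took 0.954% of all normalized counts, and the share per library was 0.9% to 1.07% in si Ctrl, 0.774% to 1.06% with si mH2A1.1 and 0.936% to 1.14% with si mH2A1.2. These ranges overlap in every pair of groups. Per kilobase of merged exons the order of levels was Gm42418 (28730 normalized counts per kilobase), Malat1 (10865), Xist (5855), 5430431A17Rik (3650) and 2900097C17Rik (2346).

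**Figure D1:**
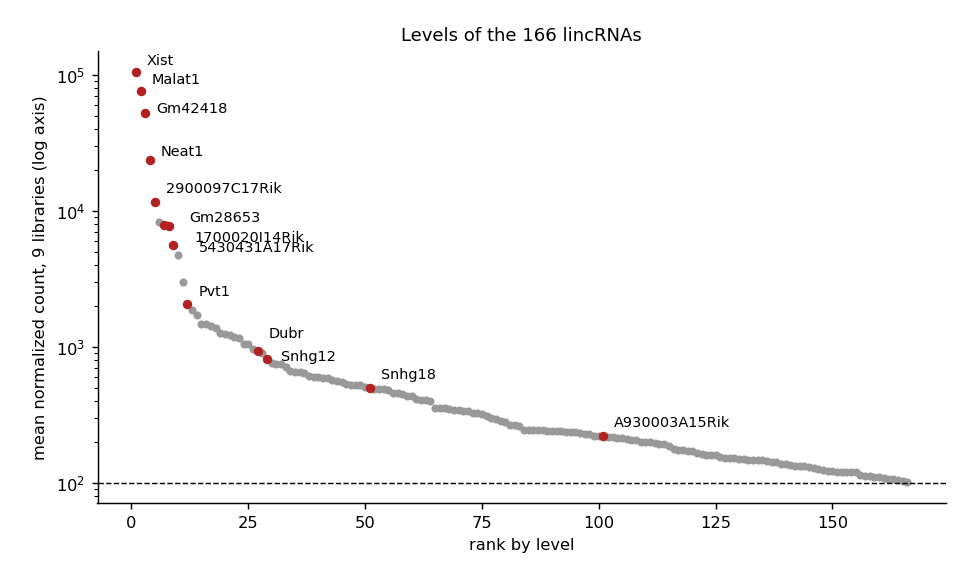
Mean normalized count over 9 libraries (log axis) of each of the 166 lincRNAs, ordered by rank. Named points are in red, the dashed line is the threshold of 100, and Xist, Malat1, Gm42418 and Neat1 lie at the top.

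The annotation of these lincRNAs was mixed. They lay on 20 chromosomes, had a median of 3 exons and 2411 bases of merged exons, and 34 were single-exon genes. The longest, AC160336.1 on chromosome 14, is annotated as 1 exon of 93147 bases. A coding gene lay within 5 kb of 59 lincRNAs, 18 overlapped its body, and 16 started within 5 kb of a coding start in the divergent direction. Exons were shared with another gene of the same strand in 21 cases and of the opposite strand in 32, and for those the estimated counts could be split between both. RefSeq held 97 of the symbols and 6 more as synonyms, and typed 88 of them as lncRNA, 8 as protein coding, 5 as pseudogenes and 2 as transcribed pseudogenes. Gm46430 and Zfp469 were among those that RefSeq types as coding, and Gm42418 is a RefSeq synonym of an 18S ribosomal RNA pseudogene, Rn18s-rs5.

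The median coefficient of variation over the 166 lincRNAs was 16.8% in control, 14.9% in mH2A1.1 and 17% in mH2A1.2 knockdown libraries. Protein coding genes with a mean of at least 100 had medians of 9.76%, 10.3% and 10.3% in the same groups, but that set has no upper limit on level and was not matched to the lincRNAs.

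RefSeq promoter windows, from 250 bases before to 50 after a start on GRCm38.p6, were matched by symbol to 69 of the 166 lincRNAs. The nearest RefSeq start lay within 250 bases of the GENCODE start for 53 of them. Members and all 32851 windows both had a median of 7 CG dinucleotides, and the median GC content was 52.3% and 52.7%. The E-box CANNTG, the motif bound by myogenic basic helix-loop-helix factors, was present on either strand in 71% of the member windows and 72.3% of all windows. The AP-1 motif TGANTCA was in 7.25% and 7.81%, the interferon response core TTTCNNTTT in 8.7% and 10.6%, and the TATA box TATAAA in 10.1% and 13.6%. Each of these shares was near the one over all windows, and a match is only a description of the letters.

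Windows are shown for Snhg18 and A930003A15Rik, whose differences passed the test in all 19 refits of the table, for Dubr, a lincRNA of myogenic differentiation, and for 9330102E08Rik, which fell with si mH2A1.2. All 4 lie on the minus strand and read 5′ to 3′ in the direction of transcription. Capitals mark CG dinucleotides in Snhg18 and Dubr and E-boxes in the other two. Snhg18 is at chr15:32244613-32244912, A930003A15Rik at chr16:19884225-19884524, Dubr at chr16:50732724-50733023 and 9330102E08Rik at chr6:128183754-128184053.
Snhg18: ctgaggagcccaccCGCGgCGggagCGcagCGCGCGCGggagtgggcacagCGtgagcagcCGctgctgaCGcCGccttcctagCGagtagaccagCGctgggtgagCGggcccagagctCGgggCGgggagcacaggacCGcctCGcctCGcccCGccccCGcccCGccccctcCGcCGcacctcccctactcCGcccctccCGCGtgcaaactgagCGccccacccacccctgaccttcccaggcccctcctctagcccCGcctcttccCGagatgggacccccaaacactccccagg
A930003A15Rik: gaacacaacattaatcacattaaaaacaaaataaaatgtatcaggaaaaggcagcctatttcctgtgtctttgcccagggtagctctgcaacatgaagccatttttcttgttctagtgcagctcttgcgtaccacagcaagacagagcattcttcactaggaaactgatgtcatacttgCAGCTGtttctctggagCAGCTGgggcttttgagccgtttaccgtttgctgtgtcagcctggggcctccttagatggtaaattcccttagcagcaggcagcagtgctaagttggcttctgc
Dubr: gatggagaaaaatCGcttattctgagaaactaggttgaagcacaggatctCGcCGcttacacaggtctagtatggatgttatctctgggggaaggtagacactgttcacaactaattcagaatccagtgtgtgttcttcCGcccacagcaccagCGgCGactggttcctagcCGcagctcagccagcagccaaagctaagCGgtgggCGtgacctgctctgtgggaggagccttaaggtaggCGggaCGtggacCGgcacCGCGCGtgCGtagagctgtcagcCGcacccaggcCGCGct
9330102E08Rik: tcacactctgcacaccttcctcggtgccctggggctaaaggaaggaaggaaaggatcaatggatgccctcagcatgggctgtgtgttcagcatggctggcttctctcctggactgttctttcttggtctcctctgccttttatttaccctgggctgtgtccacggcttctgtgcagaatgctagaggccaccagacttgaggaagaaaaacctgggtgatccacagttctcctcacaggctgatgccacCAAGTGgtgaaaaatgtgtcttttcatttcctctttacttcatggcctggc
The Snhg18 window holds 31 CG dinucleotides, a number reached by 10.6% of all windows, and has a GC content of 75.3%. The annotated start of Sema5a, on the plus strand, lies 148 bases upstream inside the same window. The Dubr window has 19 CG dinucleotides, reached by 28.1% of windows, and those of A930003A15Rik and 9330102E08Rik have 3 and 2. A930003A15Rik holds the same E-box sequence at 71 and 54 bases before its start, and 9330102E08Rik has 1 E-box, beginning 1 base before its start.

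Against si Ctrl, the number of lincRNAs that passed with si mH2A1.1 depended on the model. In a model without a block for the replicate number few passed, and most of those fell. With that block more rises and more falls passed, and the total is in the section on processing. Without the block, at an edgeR adjusted p of 0.05 or less, 3 rose and 10 fell. This is 1.81% and 6.02% of the lincRNAs beside 6.18% and 4.93% of all genes tested. In both directions together the share was 7.83%, beside 11.1% of all genes and 13.7% of the protein coding genes with a mean of at least 100. The median log2 fold change of the 166 lincRNAs was -0.07, with quartiles of -0.35 and 0.19, beside -0.01 over all genes. Without asking for a test, the si mH2A1.1 range lay wholly above the si Ctrl range for 13 lincRNAs (7.83%), beside 17.6% of all genes. The si mH2A1.1 range lay wholly below that of si Ctrl for 34 (20.5%), beside 16.6% of all genes. Under stricter cutoffs, where the adjusted p is under 0.01 and the log2 difference is 0.8 or more in size, edgeR called 1 lincRNA, Snhg18, which fell, beside 1.31% of all genes higher and 0.491% lower. With those cutoffs limma-voom called 0 higher and 2 lower and DESeq2 4 higher and 5 lower. The shares of all genes by these tools are not given here or in the other contrasts. At an unadjusted edgeR p under 0.05, 15 lincRNAs were higher and 29 lower, beside 5789 of the 19545 genes in both directions. The count of 13 changed with the library left out. It was 3 without si Ctrl replicate 2 or without si mH2A1.1 replicate 3, and 4 without si Ctrl replicate 3 or without si mH2A1.1 replicate 1. Without si mH2A1.2 replicate 2, which shares the estimate of the spread, it was 8. Each such fit also has fewer samples, and the part of that in these counts was not tested. The share of all genes called in such fits is not given, in this contrast or in the others. These counts therefore do not show whether lincRNAs lost calls more than other genes.

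With si mH2A1.2 fewer lincRNAs passed. By edgeR 0 rose and 2 fell, beside 1.37% of all genes higher and 0.982% lower. At an unadjusted edgeR p under 0.05, 5 were higher and 8 lower, beside 3109 of the 19545 genes in both directions. DESeq2 called 1 higher and 4 lower, and limma-voom called 0 higher and 2 lower. The median log2 fold change was 0.02, beside -0.00 over all genes. Ranges lay apart above si Ctrl for 12 lincRNAs (7.23%) and below it for 12 (7.23%), beside 11.5% and 11.0% of all genes. The stricter cutoffs called 0 by edgeR and limma-voom and 3 by DESeq2, beside 0.128% of all genes higher and 0.0512% lower by edgeR. Libraries of the same replicate number deviated together most in this contrast. With the replicate block 4 rose and 4 fell, beside 5.14% of all genes in both directions. The count of 2 was 0 without si Ctrl replicate 1 or 3 or without si mH2A1.2 replicate 1 or 2, and 1 without si mH2A1.1 replicate 2 or 3.

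Between the knockdowns, 14 lincRNAs were higher with si mH2A1.1 and 21 lower, that is 8.43% and 12.7%, beside 12.0% and 10.5% of all genes. The median log2 fold change of the lincRNAs was -0.11, beside -0.01 over all genes. Ranges lay apart above for 23 (13.9%) and below for 39 (23.5%), beside 20.5% and 19.0% of all genes. Under the stricter cutoffs edgeR called 3 higher and 3 lower (1.81% each), beside 3.54% and 2.84% of all genes. With the same cutoffs limma-voom called 3 and 4, and DESeq2 8 and 11. The count of 35 was 16 without si mH2A1.1 replicate 1 or without si mH2A1.2 replicate 2, 19 without si mH2A1.1 replicate 3, and 23 without si mH2A1.2 replicate 3.

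**Figure D2:**
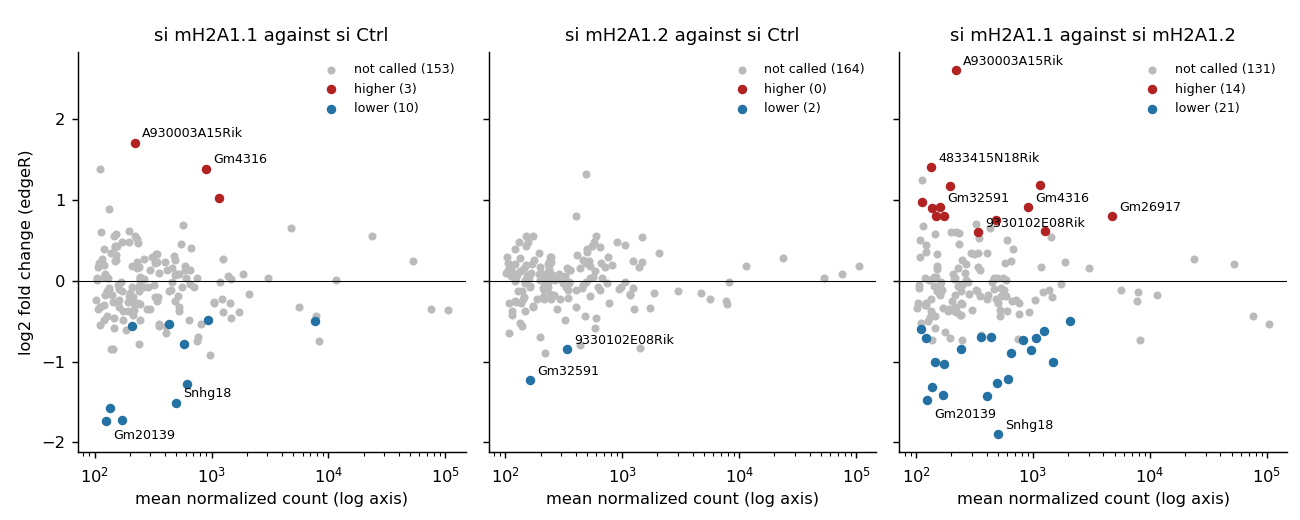
Log2 fold change by edgeR of each of the 166 lincRNAs against its mean normalized count (log axis), for 3 contrasts. LincRNAs that passed are in red (higher) or blue (lower), with their number in each panel. The si mH2A1.1 panel has 3 red and 10 blue points, the si mH2A1.2 panel 0 and 2, and the panel of the knockdowns 14 and 21.

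Snhg18, the host gene of the small nucleolar RNA Snord123 (chromosome 15, 32240565 to 32244662, minus strand), showed the firmest difference. It had 507, 671 and 515 normalized counts in si Ctrl, 163, 237 and 193 with si mH2A1.1, and 641, 909 and 663 with si mH2A1.2. Every si mH2A1.1 library lay below every other library, and the si mH2A1.2 range overlapped that of si Ctrl. The log2 fold change with si mH2A1.1 was -1.51 ± 0.19 (SE, edgeR adjusted p = 0.003) and that with si mH2A1.2 was 0.39 ± 0.19 (edgeR adjusted p = 0.342). Between the knockdowns it was -1.90 ± 0.19 (edgeR adjusted p = 0.000323). With si mH2A1.1 its adjusted p was at most 0.0159 in all 19 refits of the table, which changed the tool, the scaling, the filter, the model or the libraries.

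A930003A15Rik (chromosome 16, 19876567 to 19884274, minus strand), a lincRNA of 2 exons, went the other way. It had 175, 92.8 and 144 normalized counts in si Ctrl, 610, 334 and 404 with si mH2A1.1, and 102, 54.4 and 63.3 with si mH2A1.2. All si mH2A1.1 libraries lay above all others, and 1 si mH2A1.2 library lay within the si Ctrl range. With si mH2A1.1 its log2 fold change was 1.71 ± 0.31 (edgeR adjusted p = 0.0108) and 2.61 ± 0.33 between the knockdowns (edgeR adjusted p = 0.000794), the largest rise among the 166 in that contrast. With si mH2A1.2 it was -0.90 ± 0.33 (edgeR adjusted p = 0.205, and 0.0154 with the replicate block). Its exons share 102 bases of the same strand with the annotated microRNA gene Gm27883.

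Gm20139, Gm29408 and Gm19705, lincRNAs of low level and no described role, fell more steeply but with more spread. Gm20139 (chromosome 10, 19141751 to 19206702) had 159, 173 and 192 normalized counts in si Ctrl, 26.8, 84.2 and 46 with si mH2A1.1, and 129, 162 and 144 with si mH2A1.2. Its si mH2A1.1 libraries lay below all others, at a log2 fold change of -1.74 ± 0.33 (edgeR adjusted p = 0.0126), and the call was lost only without si mH2A1.1 replicate 3. Gm29408 (chromosome 9, 90938980 to 90939195), a single exon of 216 bases, had 145, 352 and 236 normalized counts in si Ctrl, 39.2, 98.5 and 82.3 with si mH2A1.1, and 113, 276 and 201 with si mH2A1.2. In each group replicate 1 was the lowest and replicate 2 the highest. The si mH2A1.1 range still lay below the si Ctrl range (log2 fold change -1.73 ± 0.43, edgeR adjusted p = 0.0313, and 0.000642 with the replicate block). Gm19705 (chromosome 1, 136670769 to 136690804) had 151, 271 and 146 normalized counts in si Ctrl, 53.5, 67.9 and 68.1 with si mH2A1.1, and 72.6, 190 and 207 with si mH2A1.2. The 3 si mH2A1.1 libraries lay together below every other one, and the log2 fold change was -1.58 ± 0.38 (edgeR adjusted p = 0.0288).

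Gm12840 and Gm14635 also fell with si mH2A1.1. Gm12840 (chromosome 4, 117700188 to 117700923) had 548, 981 and 812 normalized counts in si Ctrl, 215, 353 and 392 with si mH2A1.1, and 498, 950 and 783 with si mH2A1.2. Its si mH2A1.1 range lay below the other groups, whose ranges overlapped (log2 fold change -1.28 ± 0.30, edgeR adjusted p = 0.0247, and 0.000778 with the replicate block). Gm14635 (chromosome X, 12339782 to 12354996) had 597, 690 and 1067 normalized counts in si Ctrl, 404, 502 and 464 with si mH2A1.1, and 510, 478 and 572 with si mH2A1.2. Both knockdown ranges lay below that of si Ctrl, with log2 fold changes of -0.78 ± 0.20 (edgeR adjusted p = 0.0354) and -0.59 ± 0.20 (edgeR adjusted p = 0.176). The calls of Gm12840, Gm14635, Gm29408 and Gm19705 were each lost without si Ctrl replicate 2 or 3 and without si mH2A1.1 replicate 1 or 3.

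Smaller falls were found for 4 lincRNAs with si mH2A1.1, of which 2 have described roles. 1700020I14Rik (chromosome 2, 119594297 to 119607502), named Oip5os1 or Cyrano in RefSeq, is a conserved RNA that carries a site for miR-7 and promotes its decay. It had 8949, 7992 and 10336 normalized counts in si Ctrl, 5207, 7346 and 6737 with si mH2A1.1, and 7554, 7392 and 8001 with si mH2A1.2. The si mH2A1.1 range lay below both other groups (log2 fold change against si Ctrl -0.50 ± 0.14, edgeR adjusted p = 0.0469). Dubr (chromosome 16, 50719294 to 50732773), also named Dum, is induced in myoblast differentiation and acts on its neighbour Dppa2. It had 1120, 990 and 1059 normalized counts in si Ctrl, 657, 850 and 758 with si mH2A1.1, and 836, 1037 and 1069 with si mH2A1.2. All si mH2A1.1 values lay below si Ctrl, while 1 si mH2A1.2 library fell within the si mH2A1.1 range (log2 fold change -0.48 ± 0.13, edgeR adjusted p = 0.04).

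Gm20300 and Gm48604 were the other two. Gm20300 (chromosome 10, 30603195 to 30606634) had 464, 450 and 477 normalized counts in si Ctrl, 292, 341 and 332 with si mH2A1.1, and 601, 512 and 438 with si mH2A1.2. Its si Ctrl libraries were close together and all above si mH2A1.1 (log2 fold change -0.53 ± 0.14, edgeR adjusted p = 0.0394). Gm48604 (chromosome 9, 44290044 to 44292463) lies within the body of Hinfp, shares 24 exon bases with it, and had 277, 231 and 225 normalized counts in si Ctrl, 161, 169 and 169 with si mH2A1.1, and 206, 223 and 210 with si mH2A1.2. The 3 groups did not overlap, in the order si Ctrl, si mH2A1.2 and si mH2A1.1, and the fall with si mH2A1.1 passed (log2 fold change -0.56 ± 0.14, edgeR adjusted p = 0.0339). For 1700020I14Rik, Dubr, Gm20300 and Gm48604 the call was lost without any 1 si Ctrl library, without si mH2A1.1 replicate 1 or 3 or without si mH2A1.2 replicate 2, and for 1700020I14Rik also without si mH2A1.2 replicate 3.

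Besides A930003A15Rik, 2 lincRNAs rose with si mH2A1.1. Gm4316 (chromosome 8, 123165255 to 123178765) lies inside Gm20388, an annotated coding gene of the same strand, and had 596, 558 and 459 normalized counts in si Ctrl, 2143, 914 and 1172 with si mH2A1.1, and 962, 639 and 646 with si mH2A1.2. Both knockdowns lay above si Ctrl, with the highest value in si mH2A1.1 replicate 1, and only the rise with si mH2A1.1 passed (log2 fold change 1.39 ± 0.29, edgeR adjusted p = 0.0178). With si mH2A1.2 it was 0.48 ± 0.29 (edgeR adjusted p = 0.463). Gm14221 (chromosome 2, 160568379 to 160619971) had 1109, 569 and 973 normalized counts in si Ctrl, 2153, 1520 and 1728 with si mH2A1.1, and 1127, 608 and 630 with si mH2A1.2. Its si mH2A1.1 libraries were above all 6 others (log2 fold change 1.03 ± 0.29, edgeR adjusted p = 0.0459). The call of Gm4316 was lost without si Ctrl replicate 2 or 3, and that of Gm14221 without these, without si mH2A1.1 replicate 1 or 3, or without si mH2A1.2 replicate 2 or 3.

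The 2 lincRNAs that fell with si mH2A1.2 were Gm32591 and 9330102E08Rik. Gm32591 (chromosome 6, 82823214 to 82841371) had 190, 167 and 293 normalized counts in si Ctrl, 169, 162 and 189 with si mH2A1.1, and 81, 75.6 and 120 with si mH2A1.2. Its si mH2A1.2 libraries lay below all others (log2 fold change -1.23 ± 0.25, edgeR adjusted p = 0.0378, and 0.00917 with the replicate block). 9330102E08Rik (chromosome 6, 128169704 to 128183803) had 423, 402 and 453 normalized counts in si Ctrl, 316, 378 and 383 with si mH2A1.1, and 241, 249 and 218 with si mH2A1.2. The 3 groups did not overlap, and the fall passed with si mH2A1.2 (log2 fold change -0.85 ± 0.13, edgeR adjusted p = 0.0161) but not with si mH2A1.1 (-0.25 ± 0.13, edgeR adjusted p = 0.234). Between the knockdowns both were higher with si mH2A1.1, by 0.91 ± 0.25 and 0.60 ± 0.13 on the log2 scale (edgeR adjusted p = 0.0286 and 0.0108). Both calls against si Ctrl were lost without si Ctrl replicate 1 or 3 or without si mH2A1.2 replicate 1 or 2, and that of Gm32591 also without si mH2A1.1 replicate 2 or 3.

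With the replicate block, 6 more lincRNAs passed with si mH2A1.2. Pvt1 (log2 fold change 0.34, edgeR adjusted p = 0.0382 with the replicate block), Gm32618 (0.55, adjusted p = 0.0282), Gm49083 (0.46, adjusted p = 0.0321) and Gm36377 (1.39, adjusted p = 0.0396) were higher, and Gm35019 (-0.85, adjusted p = 0.0137) and A930003A15Rik were lower. Without the block the adjusted p of these 6 ranged from 0.0582 to 0.464 in edgeR. Gm36377 (chromosome 13, 70651005 to 70655787) had 240, 337 and 387 normalized counts in si Ctrl, 174, 421 and 414 with si mH2A1.1, and 966, 786 and 663 with si mH2A1.2. All si mH2A1.2 libraries lay above the other 6, and the unblocked log2 fold change was 1.33 ± 0.31 (edgeR adjusted p = 0.0582).

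**Figure D3:**
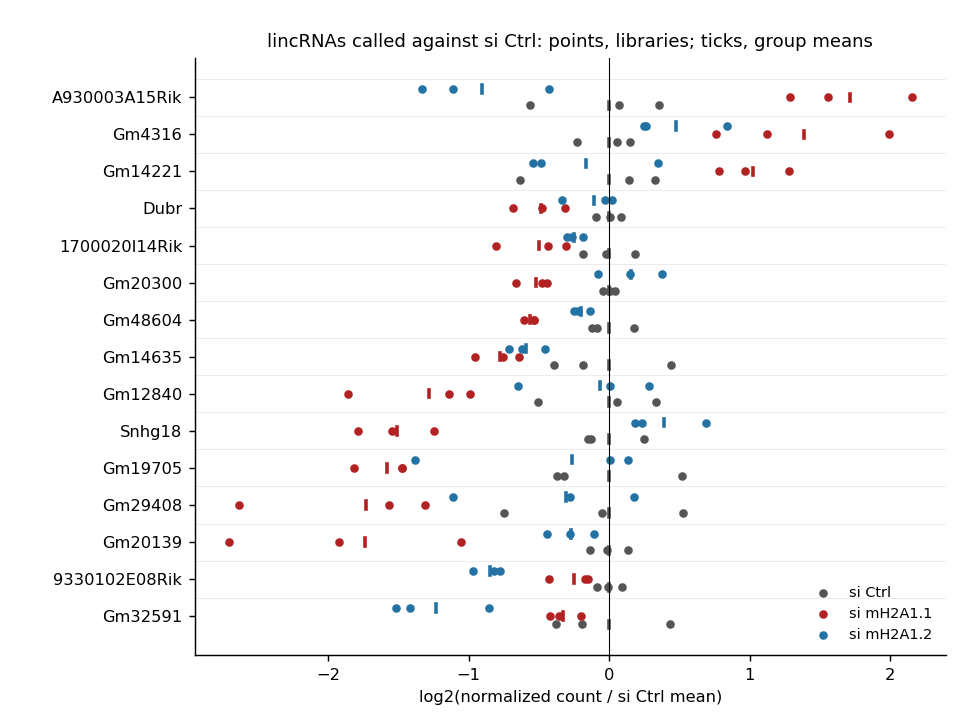
Log2 ratio of the normalized count in each library to the si Ctrl mean, for the 15 lincRNAs that passed the test in either knockdown. Points are libraries, ticks are group means of 3 libraries, and groups are drawn in 3 colours. The si mH2A1.1 points of Snhg18 and A930003A15Rik lie apart from all other points of their row.

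Between the knockdowns the largest differences were those of A930003A15Rik and Snhg18, given above. Of the named lincRNAs higher with si mH2A1.1, 4833415N18Rik had 140, 102 and 99.2 normalized counts in si Ctrl, 233, 217 and 180 with si mH2A1.1, and 119, 69.5 and 47.8 with si mH2A1.2. Its si mH2A1.1 range lay above the other groups, which overlapped (log2 fold change between the knockdowns 1.41 ± 0.30, edgeR adjusted p = 0.00971). 2310001H17Rik had 199, 174 and 215 normalized counts in si Ctrl, 227, 238 and 353 with si mH2A1.1, and 122, 125 and 114 with si mH2A1.2. The 3 groups did not overlap, with si Ctrl between the knockdowns (1.18 ± 0.20, edgeR adjusted p = 0.00312). Gm14221 (1.19 ± 0.29), Gm47761 (0.98 ± 0.31), Gm4316 (0.91 ± 0.29) and Gm48362 (0.90 ± 0.20) were also higher on the log2 scale, and for Gm4316 the sample ranges overlapped.

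Among lincRNAs lower with si mH2A1.1 than with si mH2A1.2, F730311O21Rik had 267, 606 and 204 normalized counts in si Ctrl, 136, 329 and 228 with si mH2A1.1, and 474, 926 and 465 with si mH2A1.2. The knockdown ranges lay apart and si Ctrl covered part of each (log2 fold change -1.43 ± 0.45, edgeR adjusted p = 0.0435, and 0.00186 with the replicate block). Gm6410 had 172, 184 and 139 normalized counts in si Ctrl, 100, 147 and 107 with si mH2A1.1, and 225, 279 and 217 with si mH2A1.2. Its si mH2A1.2 libraries lay above all others (-1.03 ± 0.20, edgeR adjusted p = 0.00622). Gm20139 (-1.48 ± 0.33), Gm29408 (-1.42 ± 0.43), Gm19705 (-1.31 ± 0.38), Gm36377 (-1.26 ± 0.31) and Gm12840 (-1.22 ± 0.30) made up, with these and Snhg18, the 8 lowest of the called lincRNAs. The calls between the knockdowns of Snhg18, A930003A15Rik, 4833415N18Rik, 2310001H17Rik, Gm48362, Gm20139, Gm36377 and Gm6410 held in all 19 refits. Those of F730311O21Rik, Gm29408 and Gm19705 were lost without any 1 of si mH2A1.1 replicates 1 and 3 and si mH2A1.2 replicates 2 and 3, and in addition without si Ctrl replicate 1, without si Ctrl replicate 3 and without si mH2A1.1 replicate 2 respectively. That of Gm32591 was lost without replicate 1 or 3 of si mH2A1.1 or replicate 1 or 2 of si mH2A1.2. Those of Gm14221 and Gm12840 were lost without si mH2A1.1 replicate 1 or si mH2A1.2 replicate 2, and that of Gm14221 also without si mH2A1.2 replicate 3. The call of Gm4316 held in 2 and that of Gm47761 in 2 of 9 fits that left out 1 library.

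The nuclear lincRNAs at the top of the list showed no call against si Ctrl by edgeR. Xist had 126974, 98820 and 99394 normalized counts in si Ctrl, 57713, 95912 and 99144 with si mH2A1.1, and 138506, 116031 and 113130 with si mH2A1.2. Replicate 1 of si mH2A1.1 was the lowest of all 9 libraries, and the knockdown ranges lay apart without passing the test (log2 fold change between the knockdowns -0.54 ± 0.21, edgeR adjusted p = 0.0901, DESeq2 adjusted p = 0.0432). Malat1 had 96044, 70359 and 73642 normalized counts in si Ctrl, 62031, 55643 and 71172 with si mH2A1.1, and 111611, 72147 and 70155 with si mH2A1.2. Its 3 groups overlapped in part in every pair. Neat1 had 22081, 18024 and 18157 normalized counts in si Ctrl, 23774, 31462 and 29907 with si mH2A1.1, and 31838, 19518 and 19018 with si mH2A1.2. The si mH2A1.1 range lay above si Ctrl (log2 fold change 0.55 ± 0.21, edgeR adjusted p = 0.108), and it passed in edgeR when si mH2A1.2 replicate 1 was left out. Replicate 1 of si mH2A1.2 was the highest library for Xist, Malat1 and Neat1.

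Jpx and Ftx, lincRNAs of the X-inactivation centre beside Xist, had 158 ± 24.7 and 554 ± 95.6 normalized counts in si Ctrl (SD, n = 3). With si mH2A1.1 they had 132 ± 24.2 and 609 ± 40.6, and with si mH2A1.2 137 ± 12.5 and 602 ± 128, and neither passed in any contrast. Gm26917 and Gm42418 lie 617 bases apart in a region of chromosome 17 with ribosomal RNA sequence. Gm26917 had 4915, 3702 and 3694 normalized counts in si Ctrl, 7917, 4528 and 6904 with si mH2A1.1, and 4215, 3500 and 3369 with si mH2A1.2. Against si Ctrl its log2 fold change with si mH2A1.1 was 0.65 ± 0.20 (edgeR adjusted p = 0.0592, and 0.0178 by DESeq2). It was higher with si mH2A1.1 than with si mH2A1.2 (log2 fold change 0.80 ± 0.20, edgeR adjusted p = 0.0178), a call lost without replicate 1 or 3 of si mH2A1.1 or replicate 2 or 3 of si mH2A1.2. Gm42418 had 87705 normalized counts in si mH2A1.1 replicate 3 and between 41447 and 60023 in the other 8 libraries. The 3 groups overlapped for Gm42418.

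2900097C17Rik, the mouse Norad, which binds Pumilio proteins, varied little. It had 10714, 11486 and 10884 normalized counts in si Ctrl, 10765, 10700 and 11804 with si mH2A1.1, and 11223, 12919 and 13286 with si mH2A1.2. Its groups overlapped, with log2 fold changes of 0.01 ± 0.10 and 0.18 ± 0.10 against si Ctrl. AC160336.1 had 6210, 11890 and 10571 normalized counts in si Ctrl, 4393, 6201 and 6517 with si mH2A1.1, and 7007, 11183 and 10154 with si mH2A1.2. The si mH2A1.1 range lay below that of si mH2A1.2, and the log2 fold change against si Ctrl was -0.74 ± 0.25 (edgeR adjusted p = 0.0816, 0.00339 with the replicate block, and 0.0281 by DESeq2). Its exon shares 2444 bases with other genes of its strand.

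Gm28653 (chromosome 1, 20669882 to 20684298, plus strand) spans the muscle microRNAs Mir206 and Mir133b, at the locus of linc-MD1, a lincRNA of myoblast differentiation. The 3p mature forms, from RefSeq on GRCm38.p6, are shown for what this lincRNA carries, with the seed, bases 2 to 8, in capitals. They lie at chr1:20679055-20679076 and chr1:20682834-20682855 on the plus strand and have different seeds.
miR-206-3p: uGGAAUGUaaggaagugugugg
miR-133b-3p: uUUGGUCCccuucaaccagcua
Gm28653 had 12050, 6871 and 8756 normalized counts in si Ctrl, 6028, 7895 and 6516 with si mH2A1.1, and 10100, 6605 and 5775 with si mH2A1.2. All 3 ranges overlapped, and log2 fold changes against si Ctrl of -0.44 ± 0.24 and -0.29 ± 0.24 did not pass (edgeR adjusted p = 0.252 and 0.616). The mature microRNAs were not measured in these libraries.

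5430431A17Rik (chromosome 7, 44473538 to 44486138), at the locus of Charme, a chromatin-associated lincRNA of muscle cells, had 6951, 4601 and 7587 normalized counts in si Ctrl, 5334, 4550 and 5336 with si mH2A1.1, and 7284, 4256 and 4781 with si mH2A1.2. The groups overlapped and neither knockdown passed (log2 fold change -0.33 ± 0.22 and -0.22 ± 0.22). The cardiovascular lincRNA Bvht and the neighbouring Carmn, a lincRNA of smooth muscle and heart, had 247 ± 25.7 and 236 ± 41 normalized counts in si Ctrl (SD, n = 3). They had 297 ± 20.2 and 206 ± 66.2 with si mH2A1.1, and 257 ± 20.5 and 202 ± 31.8 with si mH2A1.2. Neither passed in any contrast, although the 3 si mH2A1.1 values of Bvht lay above those of both other groups.

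**Figure D4:**
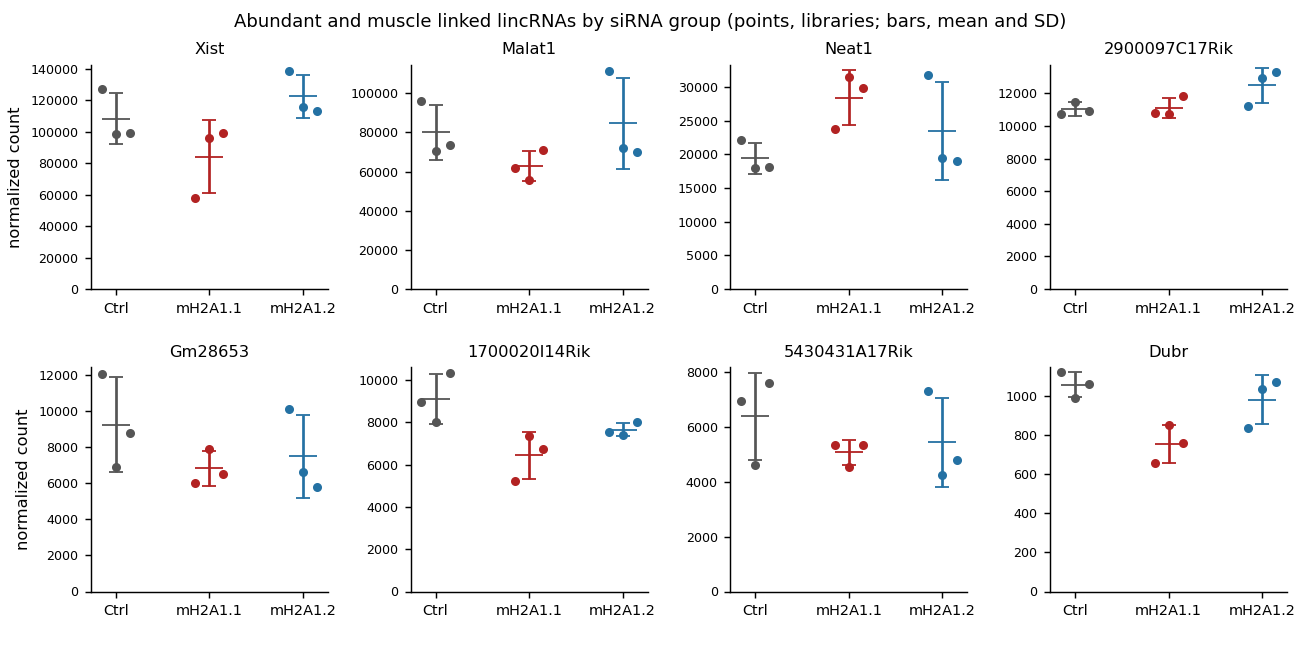
Normalized counts by siRNA group of 8 abundant or muscle linked lincRNAs, on axes that start at 0. Points are libraries and bars give the mean and SD of 3 libraries. In si mH2A1.1, 1700020I14Rik and Dubr lie below si Ctrl, whereas the ranges of Xist, Malat1, 2900097C17Rik, Gm28653 and 5430431A17Rik overlap those of si Ctrl.

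The 5 members on the list of small RNA hosts all had lower means with si mH2A1.1 than in si Ctrl, and edgeR called 1 of 5, Snhg18, while DESeq2 also called Snhg12 and Epb41l4aos (adjusted p = 0.0335 and 0.024). Over the 17 tested hosts of the whole list, members or not, 1 rose and 3 fell by edgeR, with a median log2 fold change of -0.16. Of all genes, 6.18% rose and 4.93% fell. Members that hold annotated small RNAs but are not on this list had log2 fold changes from -0.44 (Gm28653) to 1.71 (A930003A15Rik). For the 5 listed members the median log2 fold change was -0.53, beside -0.01 over all genes, and with si mH2A1.2 it was 0.16 with 0 of 5 passing in edgeR. Snhg12, which holds Snora16a, Snora44, Snora61 and Snord99, had 975, 930 and 676 normalized counts in si Ctrl, 658, 509 and 617 with si mH2A1.1, and 829, 1142 and 980 with si mH2A1.2. Its si mH2A1.1 libraries lay below all others (log2 fold change against si Ctrl -0.53 ± 0.17, edgeR adjusted p = 0.0679), and by edgeR the difference between the knockdowns passed (-0.73 ± 0.17, edgeR adjusted p = 0.0137), which was lost without si mH2A1.2 replicate 2. Epb41l4aos had 139, 210 and 140 normalized counts in si Ctrl, 109, 78.5 and 84.9 with si mH2A1.1, and 122, 220 and 201 with si mH2A1.2. It was likewise lowest with si mH2A1.1 (between the knockdowns -1.00 ± 0.26, edgeR adjusted p = 0.0228), a call lost without replicate 2 or 3 of either knockdown. Snhg6 (557 ± 74.7, 446 ± 51.9 and 571 ± 87.1 normalized counts in control, mH2A1.1 and mH2A1.2 libraries, SD, n = 3) and Snhg20 (472 ± 35.5, 437 ± 29.2 and 442 ± 97.1) passed in no contrast.

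The remaining listed lincRNAs moved little. Mir17hg, host of the miR-17 to miR-92 cluster, had 236 ± 26.9, 193 ± 12.4 and 218 ± 31 normalized counts in control, mH2A1.1 and mH2A1.2 libraries (SD, n = 3). Trp53cor1 (lincRNA-p21), next to Cdkn1a, had 275 ± 20.7, 261 ± 37.7 and 243 ± 30.9, Hotair, of the HoxC cluster, had 231 ± 20.4, 190 ± 11.3 and 243 ± 13.4, and Lockd, downstream of Cdkn1b, had 161 ± 36.2, 118 ± 6.21 and 158 ± 14.8. None of these 4 passed in any contrast, though the si mH2A1.1 ranges of Mir17hg, Hotair and Lockd lay below those of si Ctrl. Pvt1, downstream of Myc, had 1818, 1986 and 2110 normalized counts in si Ctrl, 1654, 1666 and 1982 with si mH2A1.1, and 2178, 2503 and 2798 with si mH2A1.2. Its si mH2A1.2 libraries lay above all others, and the difference between the knockdowns passed (log2 fold change -0.50 ± 0.12, edgeR adjusted p = 0.0144), except without si mH2A1.1 replicate 1 or si mH2A1.2 replicate 3. Of the 21 members on the lists of lincRNAs, which do not hold Dubr or Gm28653, 0 rose and 2 fell with si mH2A1.1 (Snhg18 and 1700020I14Rik), beside 11.1% of all genes called. With si mH2A1.2 0 passed by edgeR, where the block added Pvt1, beside 2.35% of all genes.

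Genes of proteins that handle nuclear RNA were read beside the lincRNAs. In each of the lists of paraspeckle and speckle proteins, nonsense mediated decay factors and the nuclear exosome with its NEXT adaptor, 14 genes were tested and 0 were called by edgeR in either knockdown against si Ctrl. Between the knockdowns 3 of 14 decay factors were higher and 1 lower with si mH2A1.1, and 1 of 14 exosome genes was higher. Of all genes tested, 22.5% were called in this contrast. The shares of all genes called against si Ctrl were 2.35% (si mH2A1.2) and 11.1% (si mH2A1.1). Whether any of these lists differed from all genes was not tested.

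Coding neighbours were compared within each contrast. For lincRNAs with a tested coding gene within 5 kb, the signs of both log2 fold changes were the same in 63% of 54 with si mH2A1.1 and in 64.8% with si mH2A1.2, beside 49.4% and 63.3% of the 79 whose neighbour lay farther away. Between the knockdowns the share was 55.6%, beside 46.8% for farther neighbours. There 10 called lincRNAs had a neighbour within 5 kb, and for 5 of them the neighbour was called in the same direction and for 0 in the opposite one, with Gm20388 counted for both Gm4316 and Gm42047. Of 21 called lincRNAs with a farther neighbour, 5 had it called the same way, 2 the opposite way and 14 not, and 22.5% of all genes were called in this contrast. Snhg18 and Sema5a, a semaphorin, were both lower with si mH2A1.1, by -1.90 and -0.43 on the log2 scale (edgeR adjusted p of Sema5a = 0.0384). Against si Ctrl the fall of Sema5a with si mH2A1.1 did not pass (-0.30, edgeR adjusted p = 0.152), although both starts share the window shown above. Gm20300 and Hint3, 1507 bases away on the same strand, fell with si mH2A1.1 by -0.53 and -0.83 (edgeR adjusted p of Hint3 = 0.0204).

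Gm48604 fell with Hinfp, the histone H4 gene regulator in which it lies (Hinfp log2 fold change -0.42, edgeR adjusted p = 0.0306), and Gm4316 rose with Gm20388 (0.39, 0.0239). Gm41442 was higher between the knockdowns with Ppp1r2, an inhibitor subunit of protein phosphatase 1 (log2 fold changes 0.80 ± 0.17 and 1.02, edgeR adjusted p = 0.00896 and 0.00115). Trnau1ap, Epb41l4a and Oip5, the neighbours of Snhg12, Epb41l4aos and 1700020I14Rik, had log2 fold changes of 0.01, 0.42 and 0.84 between the knockdowns. Of these 3 only Oip5, which takes part in centromere assembly, passed (edgeR adjusted p = 0.0308), while 1700020I14Rik itself had -0.25 ± 0.14 (edgeR adjusted p = 0.221).

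**Figure D5:**
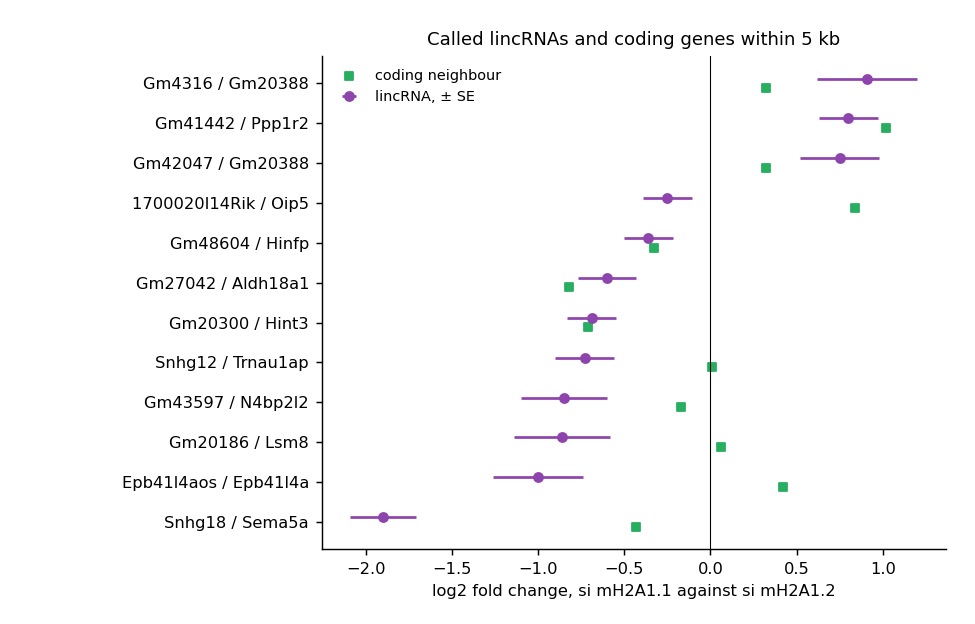
Log2 fold change between the knockdowns for lincRNAs called in at least 1 contrast and the coding gene within 5 kb. Circles are lincRNAs with the SE of edgeR, squares are coding neighbours, and pairs are named on the axis. Snhg18 at -1.90 lies far from Sema5a at -0.43, whereas Gm20300 and Hint3 lie close together.

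LincRNAs close to one another did not all move alike. On chromosome 13, Gm47469 and Gm46430 lie 15102 bases apart on the same strand, and both were lower with si mH2A1.1 than with si mH2A1.2, by -0.90 ± 0.18 and -0.62 ± 0.13 on the log2 scale (edgeR adjusted p = 0.00633 and 0.00785). E430024I08Rik, 90481 bases from Gm47469, had -0.43 in that contrast. Malat1 and Neat1, 22036 bases apart, had -0.35 and 0.55 with si mH2A1.1. Gm32618 lies on chromosome 15, as Snhg18 does, on the other side of Sema5a, and RefSeq types it as a transcribed pseudogene. It had 1243, 1826 and 1099 normalized counts in si Ctrl, 824, 1310 and 897 with si mH2A1.1, and 2021, 2526 and 1497 with si mH2A1.2. The knockdown ranges lay apart and both overlapped si Ctrl, with a log2 fold change of -1.00 ± 0.25 between them (edgeR adjusted p = 0.0171) that was lost without si mH2A1.1 replicate 1 or 3 or si mH2A1.2 replicate 2.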

How the data were processed

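Polyadenylated RNA of 9 C2C12 libraries, 3 per siRNA group, was analysed at gene level. The authors quantified reads with Salmon on mouse mm10, summed them to genes, rounded them, and deposited estimated counts per gene, and a deposited signal table that holds these counts divided by a size factor per library. The annotation release was not given in the sources used here. Strand settings were not given either. The study's text calls the replicates biologically independent, while the labels name no cultures. Genes with low counts were removed, and all groups were fitted in 1 edgeR quasi-likelihood model (edgeR 4.0.16, R 4.3.3) with TMM scaling and Benjamini-Hochberg adjustment over 19545 genes. SE is the absolute log2 fold change divided by the square root of edgeR's F statistic. Alternatives used DESeq2 1.42.0, limma 3.58.1, other scaling, filters, samples and a replicate block, and DESeq2 with the block was added after seeing the data. The scripts were tested on simulated data.

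Gene types and positions are from GENCODE M21 and sequences from RefSeq on GRCm38.p6. Libraries of the same number deviated together in si mH2A1.2 and si Ctrl (r = 0.331, 0.2915 and 0.196 for the 3 pairs), but not above 0.1 in every pair of the other contrasts (0.0841 to 0.0976 for si mH2A1.1 with si Ctrl, 0.0917 to 0.1159 for si mH2A1.1 with si mH2A1.2). Pairs of different number had r of -0.2674 to 0.0358, -0.0739 to -0.0213 and -0.0961 to -0.0122 in the same order. Same-number pairs were thus positive in all contrasts, and a weaker pairing in the other contrasts was not excluded. The members and lists were chosen with earlier results of these data known. Genes named are the listed lincRNAs, the 8 largest called rises and falls of each contrast, the 5 highest per length, those at the threshold, and coding neighbours within 5 kb. Others, such as Dubr, Gm28653, E430024I08Rik, Zfp469, Gm32618, Gm35019, Gm41442, Gm46430, Gm47469, Gm49083 and AC160336.1, were chosen after their values were seen.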

Additional observations from a re-analysis of the deposited data

How the results depend on the processing

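The si mH2A1.1 contrast had 13 called lincRNAs, the si mH2A1.2 contrast 2 and the contrast of the knockdowns 35. DESeq2 gave 24 and 5 against si Ctrl, DESeq2 with replicate block, chosen after seeing the data, gave 38 and 13, and omitting the filter on low counts gave 4 with si mH2A1.2. With the replicate block edgeR gave 29, 8 and 53. Only the si mH2A1.2 and si Ctrl libraries had same-number correlations above 0.1 in every pair. For these DESeq2, block and filter counts, a share of all genes is given only for the edgeR block with si mH2A1.2 (5.14%). The other counts therefore do not show whether lincRNAs gained calls more than other genes. An adjusted p below 0.01 with a log2 fold change of 0.8 left 1, 0 and 6, and an adjusted p of 0.05 with that fold change left 8 and 22 with si mH2A1.1 and between the knockdowns. Leaving out 1 library gave 3 to 18, 0 to 3 and 16 to 36 calls in that order, and the libraries that moved them are named in the report. The cause was not tested, and a fit that leaves out 1 library also has fewer samples. No share of all genes is given for those fits, or for the adjusted p of 0.05 with a log2 fold change of 0.8.

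Over all alternatives, 1557 of 1729 log2 fold changes of named lincRNAs kept their direction and their side of the threshold, 121 lost the call, 21 gained it and 30 changed sign. Most of the 1729 belong to listed lincRNAs that were not called in that contrast at the start and so could not lose a call. The 121 losses all come from the smaller part that was called, and 1729 is not their base. The sign changes were of small values. Snhg20 reached 0.03 with library totals and Carmn -0.01 with limma-voom, both between the knockdowns. Leaving out 1 library gave these ranges. With si mH2A1.1 they were -0.04 to 0.04 for 2900097C17Rik, -0.19 to 0.02 for Trp53cor1 and -0.47 to 0.01 for Carmn. With si mH2A1.2 they were -0.17 to 0.24 for Malat1, -0.02 to 0.41 for Neat1, -0.26 to 0.00 for Gm26917, -0.07 to 0.27 for Ftx, -0.07 to 0.15 for Snhg6, -0.25 to 0.07 for Snhg20, -0.02 to 0.13 for Bvht, -0.17 to 0.16 for Lockd and -0.01 to 0.38 for Epb41l4aos. Between the knockdowns they were -0.26 to 0.17 for 5430431A17Rik, -0.11 to 0.20 for Ftx, -0.19 to 0.13 for Snhg20, -0.01 to 0.21 for Trp53cor1, -0.25 to 0.23 for Carmn and -0.17 to 0.08 for Jpx. Counting error was not estimated apart from the spread between 3 libraries, and the smallest count of a member in a library was 28.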

Other observations

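Genes listed for described roles of a noncoding RNA that the annotation does not type as lincRNA, or that lay below the level of 100, are given here. Their counts are per gene and do not separate coding from noncoding transcripts of 1 gene. Of 53 such listed genes 35 were tested, and edgeR called 2 higher and 4 lower with si mH2A1.1 (6.18% and 4.93% of all genes), 2 higher and 0 lower with si mH2A1.2 (1.37% and 0.982% of all genes), and 3 higher and 5 lower between the knockdowns (12.0% and 10.5% of all genes). Dnm3os, the host of miR-199a and miR-214, had 1669 ± 188 normalized counts in si Ctrl, 1745 ± 306 under si mH2A1.1 and 3133 ± 256 under si mH2A1.2 (SD, n = 3 each). It rose with si mH2A1.2 (log2 fold change 0.91 ± 0.14, edgeR adjusted p = 0.0142) and had 0.07 ± 0.14 with si mH2A1.1 (edgeR adjusted p = 0.788). Peg13, an imprinted noncoding RNA, rose with si mH2A1.2 from 717 ± 65.2 to 1063 ± 161 normalized counts (edgeR adjusted p = 0.0491).

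With si mH2A1.1, the small nucleolar RNA hosts Snhg8 (log2 fold change -0.61 ± 0.15, edgeR adjusted p = 0.0284) and Zfas1 (-0.53 ± 0.13, edgeR adjusted p = 0.0281) fell. So did the gene count of Sra1, listed for a coactivator RNA of steroid receptors and MyoD (-0.58 ± 0.13, edgeR adjusted p = 0.0234). Snhg14, on the same list of small RNA hosts as Snhg8 and Zfas1 and of the Prader-Willi and Angelman imprinted region, rose (0.50 ± 0.14, edgeR adjusted p = 0.0488). Lncpint, of low level, rose too (1.45 ± 0.32, edgeR adjusted p = 0.0207). Gas5 was lower with si mH2A1.1 than with si mH2A1.2 (-0.41 ± 0.12, edgeR adjusted p = 0.0288).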
